A study of Mus musculus with 6 samples.

Results

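The claudin and connexin genes, with scaffolds and other membrane proteins grouped with them, were followed as mouse embryonic stem cells (ESCs) left pluripotency. Members were taken by name from the deposited RNA-seq table: every claudin (Cldn), every connexin of the Gja, Gjb, Gjc and Gjd groups, the Tjp scaffolds, Ocln, Marveld1 to Marveld3 and F11r. This gave 52 genes among the 23235 entries of the table, namely 25 claudins, 19 connexins, 3 scaffold genes and 5 genes for other membrane proteins.

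The cells were of E14Tg2a, a single mouse ESC line, at passages 37 to 40, grown as monolayers with serum. Pluripotent ESCs were kept with leukemia inhibitory factor (LIF), and gave 3 samples. Neuronal cells (NCs, the name the study uses) were the same line after LIF was withdrawn and 1 µM retinoic acid (RA) was given for 48 h, and also gave 3 samples. Loss of LIF and gain of RA came together, so their parts cannot be told apart. The authors deposited 1 FPKM value per gene and condition (fragments per kilobase of transcript, relative to all mapped fragments), pooled over the 3 samples. No SD or n therefore stands beside any value, and no difference can be set against the spread between replicates. The test statistics and p-values of the authors' own comparison were not used, so no test is given here. The depth of the single libraries is unknown.

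Tight junctions seal the space between neighbouring epithelial cells. Claudins form their strands and decide which ions pass, the occludin family (Ocln, Marveld2, Marveld3) lies in the same strands, and the zonula occludens scaffolds (the Tjp genes) tie claudin tails to actin. Gap junctions are channels between neighbouring cells, built of connexins, through which ions and small metabolites flow. ESCs and the early neural plate are both epithelial-like, and the neuroepithelium is known to lose tight junction strands and occludin later, as the neural tube closes.

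A gene was counted as at least 2-fold higher or lower in NCs from the ratio of the deposited values, without a pseudocount, among genes with at least 1 FPKM in at least 1 condition. Of the 52 genes, 25 reached 1 FPKM and 27 stayed under it in both conditions. Among the 25, 11 genes (44%) were at least 2-fold lower in NCs, 4 genes (16%) were at least 2-fold higher and 10 lay in between. Over all 13293 entries that reached 1 FPKM, 10.6% were at least 2-fold lower and 12.5% at least 2-fold higher. The median log2 ratio of the 25 genes was -0.34, against -0.03 over all these entries. The sum of all FPKM was 770592 in ESCs and 628679 in NCs, and bringing both to the same sum adds 0.29 to every log2 ratio. On that scale 9 of the 25 genes were lower and 5 higher, beside 7.37% and 17.7% of all entries. These are shares of mRNA of a whole culture, in which fewer cells of a type and less RNA per cell cannot be told apart.

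The 4 claudins with the most mRNA among those lower in NCs are Cldn3, Cldn4, Cldn6 and Cldn7, and the promoter of each held the E-box CAGGTG, the hexamer read by the Snail and Zeb repressors. The stretches around it are shown because they hold the hexamer these 4 genes share near their start sites. They come from RefSeq promoters on GRCm38.p6 (250 bases before to 50 after the start site, whose base counts as 1) and run 5′ to 3′ on the gene's own strand, with the E-box in capitals. Where the capitals read CACCTG, the hexamer lies on the opposite strand. For Cldn7 the start meant is an internal RefSeq start, inside the gene (69964779 to 69967886). F11r, which was higher in NCs, is shown for contrast.
Cldn3, 32 bases after the start, chr5:134986233-134986262, plus strand: caaagccacaggCAGGTGcaggggcagtct
Cldn4, 14 bases before the start, chr5:134946931-134946960, minus strand: ctttaactgcagCACCTGtggccgcccttt
Cldn4, 12 bases after the start, chr5:134946906-134946935, minus strand: cctttcttgttgCAGGTGcaggcaggaaag
Cldn6, 93 bases before the start, chr17:23679260-23679289, plus strand: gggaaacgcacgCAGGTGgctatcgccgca
Cldn6, 41 bases after the start, chr17:23679393-23679414, plus strand: cagtctcttttgCAGGTGagcc
Cldn7, 97 bases before the start, chr11:69965312-69965341, plus strand: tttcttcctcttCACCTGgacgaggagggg
Cldn7, 57 bases before the start, chr11:69965352-69965381, plus strand: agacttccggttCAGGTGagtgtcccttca
F11r, 122 bases before the start, chr1:171437427-171437456, plus strand: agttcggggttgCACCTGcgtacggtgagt

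Of all 32851 promoters searched on both strands, 20.2% held CAGGTG, which is 22.6% of the 27025 genes. A promoter sequence was at hand for 37 of the 52 genes, and 14 of these held the hexamer. Among genes that reached 1 FPKM, it lay in 6 of the 8 lower in NCs (Cldn3, Cldn4, Cldn6, Cldn7, Tjp3 and Gjb1) and in 4 of the 10 others (F11r, Gjb2, Ocln and Marveld2). For Gjb1, as for Cldn7, the match belongs to an internal RefSeq start, inside the gene (chromosome X, 101376376 to 101385629). The hexamer was therefore found in genes of either direction, and a match describes letters only, not binding. The AP-2 motif GCCNNNGGC stood in 16.6% of all promoters, which is 18.5% of the genes, and in 11 of the 37 members with a promoter. It lay in 3 of the 8 lower genes (Cldn3, Gjb1 and Gjb5) and in 6 of the 10 others; in Cldn3 it shares 1 base with the E-box shown above. The DR5 element of retinoic acid receptors, a direct repeat of AGGTCA with 5 bases between the copies, was found in 3 promoters of the whole set and in none of the 37. Only exact copies inside these promoter stretches were searched. With so few matches in the whole set, their absence from the 37 says nothing about such elements in these genes.

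Of the 9 claudins that reached 1 FPKM, 5 were at least 2-fold lower in NCs, 1 was higher and 3 lay in between. This is 55.6% lower and 11.1% higher, beside 10.6% and 12.5% of all entries. The median log2 ratio of the 9 was -1.05. Cldn4, a claudin that tightens epithelia and a receptor for Clostridium enterotoxin, was the most abundant claudin mRNA of ESCs at 114 FPKM and stood at 24.5 FPKM in NCs, 4.67-fold lower. In ESCs it ranked above 96.5% of all entries. Cldn7, found widely in epithelia, had 42.3 FPKM in ESCs against 8.45 FPKM in NCs, 5.01-fold lower. Cldn6, a claudin of embryonic epithelia, had 89.3 FPKM with LIF and 43.0 FPKM after RA, 2.08-fold lower. Cldn3, the other classical enterotoxin receptor, had 14.5 FPKM in ESCs against 6.31 FPKM in NCs, 2.30-fold lower. Cldn6 and Cldn3 lay close to the limit, and with both conditions brought to the same sum of FPKM their log2 ratios were -0.76 and -0.91, short of a 2-fold difference.

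Cldn5, best known as the claudin of the blood-brain barrier endothelium, had 4.09 FPKM with LIF and 0.737 FPKM after RA, 5.55-fold lower. Of the 5 endothelial markers looked at, 2 reached 1 FPKM and both were lower in NCs, and the summed level of the list was 28.7 FPKM in ESCs against 5.80 FPKM in NCs. In ESCs most of it was Pecam1, at 24.7 and 2.79 FPKM, a gene that ESCs also express. Cdh5, which defines endothelium, was at 0.291 and 0.297 FPKM, and no marker of the list was at 0. Kdr (0.339 and 0.697 FPKM) and Emcn (0.0917 and 0.421 FPKM) were under 1 FPKM with the higher value in NCs. The part of endothelial cells in the Cldn5 value was not tested.

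The other 4 claudins had the higher value in NCs. Cldn12, unusual in lacking the tail by which most claudins bind the scaffolds, had 14.6 FPKM with LIF and 24.4 FPKM after RA, 1.68-fold higher (just past 2-fold with the sums of FPKM made equal, at a log2 ratio of 1.04). Cldn9, known from the inner ear, had 2.70 FPKM in ESCs against 3.65 FPKM in NCs. Cldn1, the claudin of the skin barrier, had 0.517 FPKM with LIF and 1.33 FPKM after RA, 2.58-fold higher at a low level. The entry named Cldn25 had 21.2 FPKM in ESCs against 28.6 FPKM in NCs, but its gene is uncertain. RefSeq lists this name as a synonym of both Cldnd1, a claudin domain gene outside the classical family, and the pseudogene Cldn25-ps. No entry is named Cldnd1 or Cldn25-ps.

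**Figure D1:**
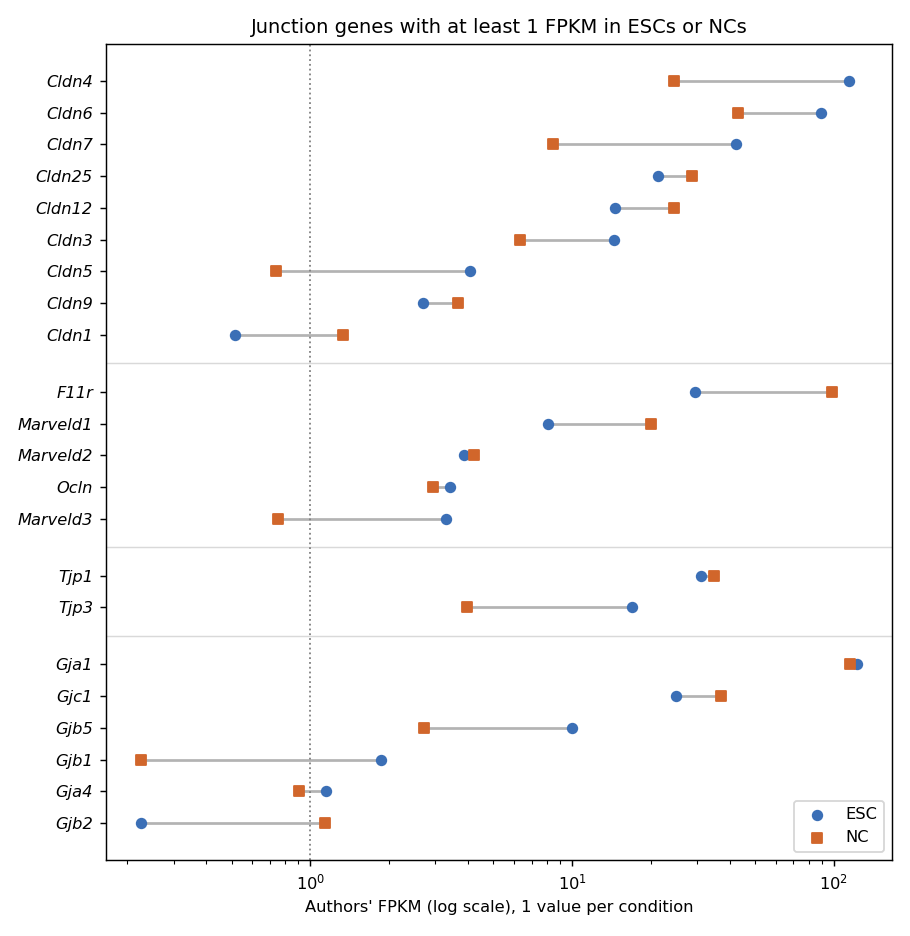
Levels of 22 of the genes that reached 1 FPKM, as the authors' FPKM on a log axis, with 1 circle for ESCs and 1 square for NCs per gene and a dotted line at 1 FPKM; from top to bottom the blocks are claudins, other membrane proteins, scaffolds and connexins. The square lies left of the circle for Cldn4 (114 to 24.5 FPKM), Cldn7, Tjp3 and Gjb5, and right of it for F11r (29.4 to 98.2 FPKM), while both symbols nearly coincide for Gja1 and Tjp1.

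FPKM is scaled per length, so the levels of a family can be added. All 25 claudins summed to 306 FPKM with LIF and 146 FPKM after RA, a log2 ratio of -1.07. This ratio was -0.78 with the sums of FPKM made equal. Without Cldn25 the sums were 285 and 117 FPKM, a log2 ratio of -1.29. The shares and orders below count the entry Cldn25, whose gene is uncertain, and would differ without it. Cldn3, Cldn4, Cldn6 and Cldn7 together had 260 FPKM in ESCs, 85% of the claudin total, and 82.2 FPKM in NCs, 56.5% of it. Cldn12 and the entry Cldn25 together had 35.8 FPKM in ESCs, 11.7% of the total, and 53.0 FPKM in NCs, 36.4% of it. The order of the claudins thus differed between the conditions. In ESCs Cldn4 led with 37.3% of the total, before Cldn6 with 29.2% and Cldn7 with 13.8%. In NCs Cldn6 led with 29.5%, before Cldn25 with 19.7% and Cldn4 and Cldn12 with 16.8% each. The level of Cldn4 was 1.28 times that of Cldn6 in ESCs and 0.569 times in NCs. Whether neighbours in these orders differ beyond the replicate spread could not be tested.

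The other 16 claudins stayed under 1 FPKM in both conditions, with a highest value of 0.992 FPKM (Cldn11, a claudin of myelin and the testis, in NCs; it had 0.280 FPKM in ESCs). Cldn13, Cldn17 and Cldn24 were listed at 0 in both. Cldn2, the cation pore of leaky epithelia, had 0.0906 FPKM in ESCs against 0.832 FPKM in NCs. Cldn11 and Cldn2 are singled out here after their values were seen. The entry Cldn26 (0.200 and 0.0414 FPKM) carries a synonym of Tmem114, so its gene is uncertain too.

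The other membrane proteins went different ways. F11r, the junctional adhesion molecule JAM-A that helps junctions form and sets cell polarity, had 29.4 FPKM with LIF and 98.2 FPKM after RA, 3.34-fold higher, and ranked above 96.4% of all entries in NCs. Marveld1, a MARVEL domain protein outside the occludin group, had 8.09 FPKM in ESCs against 20.1 FPKM in NCs, 2.48-fold higher. Both were at least 2-fold higher under every pseudocount and scaling tried. Ocln, which encodes occludin, had 3.42 FPKM with LIF and 2.94 FPKM after RA, and the sign of its small log2 ratio of -0.22 turned to 0.07 with the sums of FPKM made equal. Marveld2, or tricellulin, which closes the corners where 3 cells meet, had 3.85 FPKM in ESCs against 4.23 FPKM in NCs. Marveld3 had 3.29 FPKM with LIF and 0.755 FPKM after RA, 4.36-fold lower. Of the 3 occludin family genes, 1 was thus at least 2-fold lower and the other 2 were within 2-fold.

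The zonula occludens scaffolds also differed from each other. Tjp1 had 31.0 FPKM in ESCs against 34.7 FPKM in NCs. Tjp3, the scaffold most restricted to epithelia, had 16.96 FPKM in ESCs against 3.96 FPKM in NCs, 4.28-fold lower. The level of Tjp1 was 1.83 times that of Tjp3 in ESCs and 8.77 times in NCs. Tjp3 overlaps Apba3 on the other strand, and whether the counting used strand is not given in the sources used here.

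**Figure D2:**
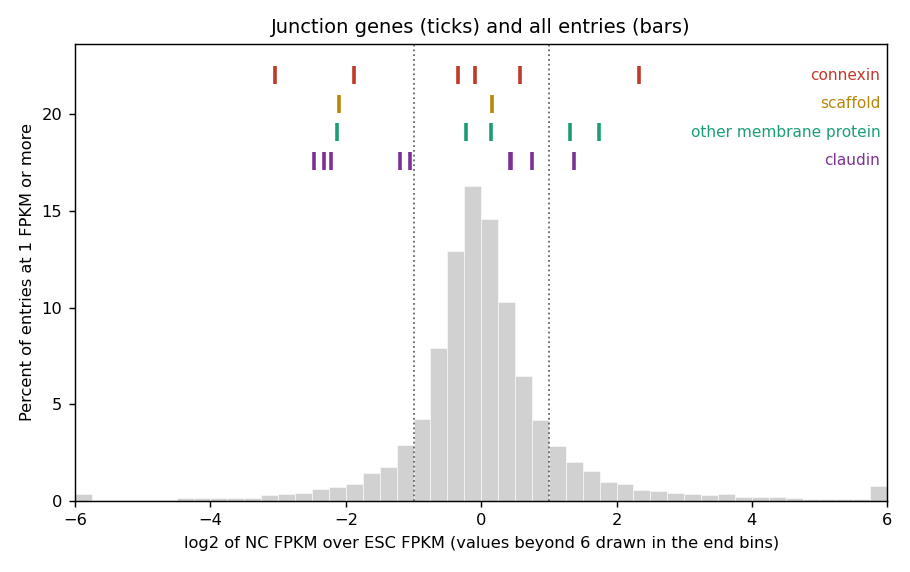
Log2 of the NC over the ESC FPKM for 22 of the genes (coloured ticks, 1 row per family) above the distribution over all 13293 entries that reached 1 FPKM (grey bars, percent of entries per bin); dotted lines mark 2-fold. Ticks left of the lower line are 5 claudins, 2 connexins, 1 scaffold and 1 other membrane protein; the height of the tick rows has no scale.

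Of the 8 connexins that reached 1 FPKM, 4 were at least 2-fold lower in NCs, 1 was higher and 3 lay in between. This is 50% lower and 12.5% higher, beside 10.6% and 12.5% of all entries. The median log2 ratio of the 8 was -1.11. Gja1, the most widely expressed connexin, had 122 FPKM with LIF and 115 FPKM after RA, the highest level of the 52 genes in either condition. Its log2 ratio of -0.09 became 0.20 with the sums of FPKM made equal. Gjc1, needed in the embryonic heart and vessels, had 24.9 FPKM in ESCs against 37.1 FPKM in NCs, 1.49-fold higher. Gja4, a connexin of endothelium and the oocyte, had 1.15 FPKM with LIF and 0.908 FPKM after RA.

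Of the beta connexins, Gjb5, known from skin and placenta, had 9.98 FPKM with LIF and 2.71 FPKM after RA, 3.68-fold lower. Gjb1, the connexin of liver and of Schwann cells, had 1.86 FPKM in ESCs against 0.226 FPKM in NCs, 8.24-fold lower. Gjb2, the cochlear connexin whose loss causes deafness, had 0.226 FPKM in ESCs against 1.14 FPKM in NCs, 5.02-fold higher. With a pseudocount of 1, which damps low values, the log2 ratios of Gjb2 and Cldn1 were 0.80 and 0.62, under the 2-fold limit, while Gjb1 stayed past it at -1.22.

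Summed by group, the 7 alpha connexins had 124 FPKM in ESCs against 116 FPKM in NCs, nearly all of it Gja1, whose direction turns with the sums made equal. The 3 gamma connexins had 25.8 FPKM with LIF and 38.1 FPKM after RA, and the 3 delta connexins had 0.261 and 0.272 FPKM. All 19 connexins summed to 187 FPKM in ESCs against 163 FPKM in NCs, a log2 ratio of -0.20 that turned to 0.09 with the sums of FPKM made equal. Gja1 and Gjc1 made up 78.7% of this total in ESCs and 93.4% in NCs. The level of Gja1 was 4.90 times that of Gjc1 in ESCs and 3.09 times in NCs. The other 11 connexins stayed under 1 FPKM in both conditions, the highest being 0.817 FPKM.

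**Figure D3:**
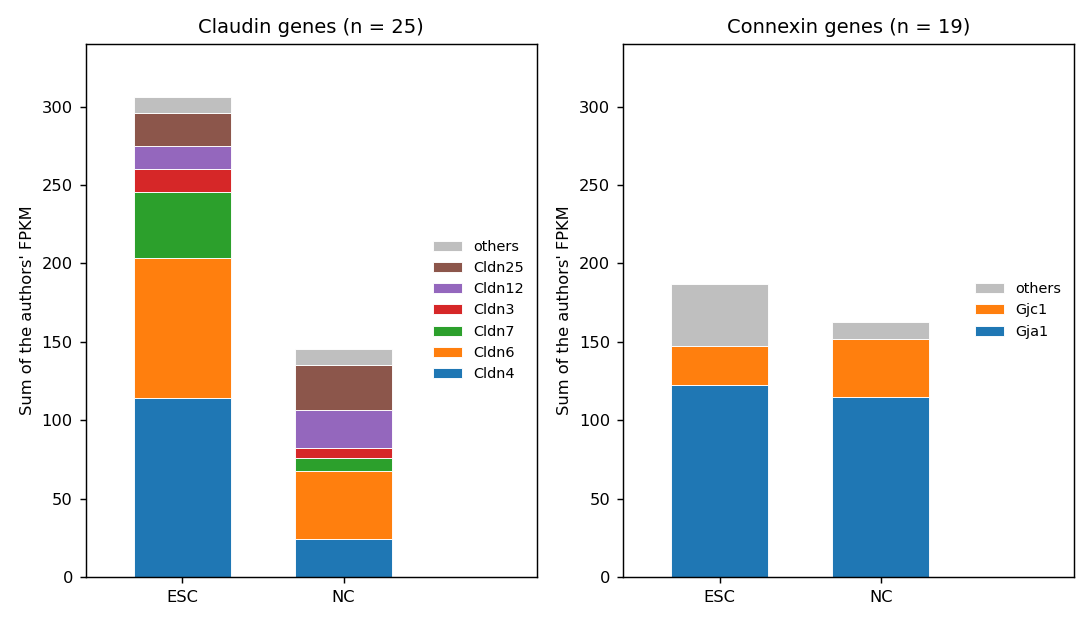
Sum of the authors' FPKM over the 25 claudins and the 19 connexins in ESCs and NCs, with each bar split into its main genes and the others. The claudin bar stands at 306 FPKM with LIF and 146 FPKM after RA, while the connexin bars stand at 187 and 163 FPKM, an order that turns round with the sums of FPKM made equal.

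Several of these genes neighbour each other, and 8 groups of 2 to 4 lay with at most 100 kb between genes (RefSeq, GRCm38.p6). Gjb2, which was higher in NCs, lies on chromosome 14 (57098602 to 57104702) between Gja3 (0.268 FPKM in ESCs against 0.407 FPKM in NCs) and Gjb6 (0.00721 and 0.0239 FPKM).

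On chromosome 5, Cldn4 (134945123 to 134946934, minus strand) and Cldn3 (134986214 to 134987476, plus strand) are 39279 bases apart and were both lower in NCs, while Cldn13, 29592 bases on the other side of Cldn4, was listed at 0 in both conditions. The level of Cldn4 was 7.87 times that of Cldn3 in ESCs and 3.87 times in NCs. Cldn3 overlaps Wbscr25 on the other strand. On chromosome 17, Cldn6 (23679348 to 23682446, plus strand) and Cldn9 (23682584 to 23684026, minus strand) run towards each other with 137 bases between their ends. Cldn6 was 2.08-fold lower and Cldn9 1.36-fold higher in NCs, and the level of Cldn6 was 33.1 times that of Cldn9 in ESCs and 11.8 times in NCs. Ocln and Marveld2 lie 43238 bases apart on chromosome 13 and both stayed within 2-fold.

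**Figure D4:**
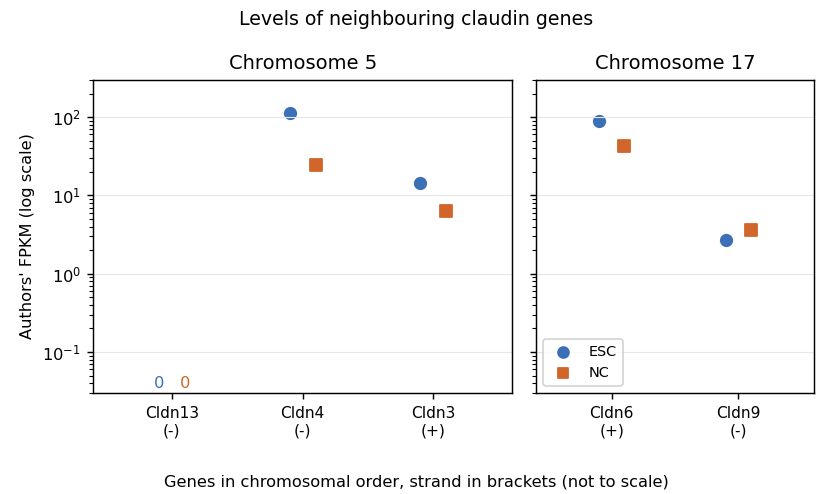
Levels of neighbouring genes in 2 groups (chromosomes 5 and 17), in chromosomal order and not to scale, as the authors' FPKM on a log axis with circles for ESCs and squares for NCs; a 0 stands for a gene listed at 0. Cldn4, Cldn3 and Cldn6 have the lower value in NCs by at least 2-fold, while Cldn9 (2.70 and 3.65 FPKM) does not.

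Other groups were mostly near 0. Cldn1 and Cldn16 on chromosome 16 are 91295 bases apart, and Cldn16 had 0.0139 FPKM in NCs but 0 in ESCs. Cldn17 and Cldn8 on the same chromosome and Cldn24 and Cldn22 on chromosome 8 had at most 0.0790 FPKM. Cldn22 shares 44.7% and Cldn24 68.9% of their 50-base words with each other, so that reads could be split between them. Most of the abundant members are compact: all 8 connexins and 6 of 8 claudins that reached 1 FPKM and have an annotated count carry their whole coding sequence in 1 exon.

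The other genes of junctions and cell polarity gave the setting, from a list of 51 names present in the table. This list was chosen with earlier results of these data known, so its counts are a description only. Of these, 45 reached 1 FPKM, and 9 were at least 2-fold lower in NCs, 11 higher and 25 in between, which is 20% and 24.4% beside 10.6% and 12.5% of all entries, with a median log2 ratio of 0.19. Among 6 tight junction adhesion genes, 2 were lower and 2 higher. Jam2 had 16.1 FPKM with LIF and 1.59 FPKM after RA, 10.1-fold lower, whereas its relatives were higher in NCs: Jam3 had 7.48 FPKM in ESCs against 23.3 FPKM in NCs, and F11r is described above. Of the angulins, which place tricellulin at cell corners, Ildr1 had 8.67 FPKM with LIF and 1.22 FPKM after RA and Ildr2 had 0.170 FPKM in ESCs against 4.20 FPKM in NCs. Lsr, the most abundant angulin in both conditions, stayed within 2-fold at 25.6 and 30.03 FPKM.

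Of 10 other junction scaffolds, 2 were higher and none lower, and of 16 polarity genes, 2 were higher (12.5%) and 1 lower (6.25%), shares near those of all entries. Crb2, a crumbs polarity gene, differed most among these, with 0.645 FPKM with LIF and 5.62 FPKM after RA. Of 7 adherens and epithelial regulators, 6 were lower, and the list summed to 275 FPKM in ESCs against 78.7 FPKM in NCs. Epcam, an adhesion protein that binds claudins, had 106 FPKM with LIF and 29.8 FPKM after RA, and Grhl3 and Esrp1, an epithelial transcription factor and a splicing regulator, were 13.3-fold and 5.16-fold lower. All 5 genes of the mesenchymal list were higher, with a sum of 7.72 FPKM in ESCs against 59.2 FPKM in NCs. Cdh2, or N-cadherin, had 2.28 FPKM with LIF and 35.5 FPKM after RA, 15.6-fold higher, and Snai1, a repressor that reads the E-box shown above, had 2.204 FPKM in ESCs against 10.4 FPKM in NCs. The part of these regulators in the claudin and connexin values was not tested.

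**Figure D5:**
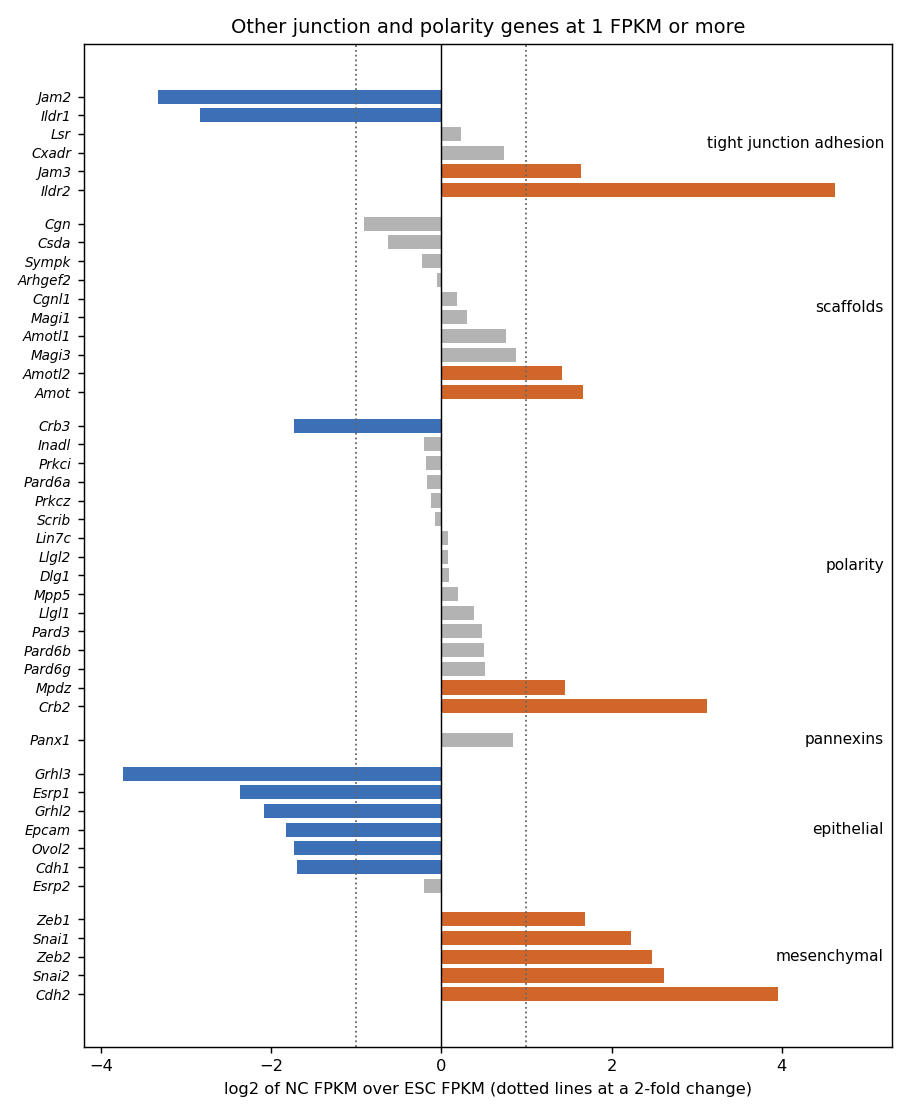
Log2 of the NC over the ESC FPKM for the 45 other junction and polarity genes that reached 1 FPKM, in 6 lists; blue bars are at least 2-fold lower in NCs, orange bars at least 2-fold higher and grey bars in between. The epithelial list holds 6 lower of 7 genes and the mesenchymal list 5 higher of 5, while 13 of the 16 polarity genes are grey.

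The labelled cell states were set against marker genes. For comparison, 10.6% of all entries that reached 1 FPKM were at least 2-fold lower and 12.5% at least 2-fold higher. All 8 pluripotency markers were lower in NCs (5949 FPKM summed in ESCs and 936 FPKM in NCs), and 6 of 7 neural progenitor markers were higher (19.8 and 154 FPKM), with Pax6 at 3.64 FPKM with LIF and 65.2 FPKM after RA. None of the 5 neuron markers that reached 1 FPKM was higher and 3 were lower (sums of the list 52.9 and 11.96 FPKM), with Tubb3 at 33.4 and 7.54 FPKM. Dcx was under 1 FPKM in both conditions, with the higher value in NCs (0.014 FPKM in ESCs and 0.334 FPKM in NCs). Beside Gjb5, the trophoblast list stood at 40.7 FPKM in ESCs against 12.7 FPKM in NCs, with 1 of 3 genes lower. That gene, Tfap2c (34.0 and 4.59 FPKM), made up most of the ESC sum. Krt7 (4.47 and 6.59 FPKM) had the higher value in NCs, as did the defining genes Cdx2 (0.274 and 0.353 FPKM) and Elf5 (0.0297 and 0.083 FPKM), both under 1 FPKM. Eomes (1.25 and 0.657 FPKM) and Hand1 (0.655 and 0.449 FPKM) had the lower value in NCs. Beside F11r, Cldn1 and Gjb2, 5 of 7 extraembryonic endoderm markers were higher and 1 lower (18.2 and 40.3 FPKM summed). All 3 surface ectoderm markers that reached 1 FPKM were higher too (77.0 and 170 FPKM summed). The sums were mainly Krt8 and Krt18, already at 30.5 and 45.7 FPKM in ESCs. Of the markers under 1 FPKM, Krt14 had the lower value in NCs (0.4755 and 0.0337 FPKM). Krt5 (0.0567 and 0.478 FPKM) and Trp63 (0.009 and 0.0234 FPKM) had the higher value in NCs. Of 4 fibroblast markers, 2 were higher and 1 lower (21.2 and 41.8 FPKM summed). No marker of these lists was at 0, and the part of such cells in the junction values was not tested.

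The lowest values set what could be seen. In a transcript of 1 kb, 1 fragment was worth about 0.0138 FPKM with LIF and 0.00714 FPKM after RA, read from the steps of low values with an assumed fragment of 200 bases, and 3 fragments at the larger step, 0.0413 FPKM per kb, were taken as the floor. Of the 52 genes, 8 lay at or under their floor in both conditions. Among these, Cldn13, Cldn17 and Cldn24 were listed at 0 in both, and the rest had values too low to be read as levels. No floor was set for the entries Cldn25 and Cldn26. No gene that reached 1 FPKM lay at its floor in the other condition.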

How the data were processed

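Total RNA of 3 ESC and 3 NC samples, each from pooled plates, was made into TruSeq libraries and sequenced on an Illumina HiSeq instrument. The authors aligned reads to mm10 with TopHat 2.0.8 and Bowtie 2.1.0, assembled transcripts with Cufflinks 2.0.2 and compared conditions with Cuffdiff, and the deposited FPKM are its values, 1 per gene and condition. The heading of the NC column reads FPK and was taken as FPKM. The methods refer to UCSC genes. Their release, the Cuffdiff version, its normalization and the strand setting are not given in the sources used here. The deposited fold changes, test statistics, p-values, q-values and significance flags are the authors' own comparison and were not used.

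Ratios were NC over ESC, with no pseudocount, for entries of at least 1 FPKM in at least 1 condition, and 2-fold was the limit. Since values of single samples were not at hand, no test was made. The calls were tested on simulated data, with planted changes well past the 2-fold limit in entries that were not low. That test does not cover low values, replicate spread or ratios near the limit. The members, gene lists and motifs were chosen with earlier results of these data known. Members that reached 1 FPKM are named, apart from some that enter the counts and totals but are not reported here, and of the other junction genes the 5 largest rises and 5 largest falls on log2(FPKM + 1), plus the markers that lead each list. Positions and promoters came from RefSeq (GRCm38.p6), with 50 of the 52 names matched by symbol, and 39 of 52 member promoters starting inside an annotated transcript of GENCODE M21 (GRCm38), which also gave exon counts, 50-base words and lengths. Protein features had been planned and were not analysed here. Alternatives were pseudocounts of 0.1 and 1, other filters and fold limits, centring on the median, equal sums of FPKM and leaving out uncertain entries. Python 3.11.15, numpy 2.4.6, pandas 2.3.3 and matplotlib 3.10.9 were used.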

Additional observations from a re-analysis of the deposited data

How the results depend on the processing

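Of the 25 genes that reached 1 FPKM, 11 were lower and 4 higher. The 4 became 2 with a pseudocount of 1 (Cldn1 and Gjb2 no longer passed), 9 with no filter on low values (46 genes), 2 with 1 FPKM needed in both conditions and 1 with a 4-fold limit, while the share of all entries that were higher moved from 12.5% to 8.08%, 16.2%, 7.45% and 5.11%. The 11 became 7 with 1 FPKM in both conditions (18 genes), and stayed between 8 and 14 under the other settings, while the share of all entries that were lower moved from 10.6% to 7.89% with 1 FPKM in both conditions, 13.2% with no filter and 3.67% with a 4-fold limit. For the junction and polarity list, the 11 higher became 7 with 1 FPKM in both conditions and 6 with a 4-fold limit, and the 9 lower became 5 with a 4-fold limit. The log2 ratio of the claudin total (-1.07) was -0.78 with equal sums of FPKM, -0.67 without Cldn4, -1.11 over genes that reached 1 FPKM and -1.29 without Cldn25. That of the connexin total (-0.20) was 0.093, reversed, with equal sums, -0.44 without Gja1 and -0.20 over genes that reached 1 FPKM. Equal sums for counts and single genes, the removal of Cldn25 and Cldn26 and the summing of entries with the same name were added after seeing the data. With equal sums, Gja1 and Ocln reversed to 0.20 and 0.073, Cldn3 and Cldn6 fell short of 2-fold and Cldn12 reached it. Centring on the median and a pseudocount of 0.1 changed the side of the limit for none of the 25. No paired analysis was possible because the table holds 1 value per condition, and for the same reason no replicate could be left out. The error of every ratio could therefore not be estimated here, and ratios near 2-fold, or of genes near 1 FPKM, are the least certain.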

Other observations

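Desmosomes are another kind of epithelial junction, and bind cells through cadherins tied to keratin filaments. Of 18 desmosome genes in the table, a list chosen after the claudin values were seen, 11 reached 1 FPKM. Jup, or plakoglobin, which also serves adherens junctions, had 37.4 FPKM in ESCs against 10.1 FPKM in NCs, 3.71-fold lower. Dsp, or desmoplakin, the link to keratin, had 5.92 FPKM with LIF and 15.3 FPKM after RA, 2.58-fold higher. Dsc2, a desmosomal cadherin, had 1.65 FPKM in ESCs against 6.28 FPKM in NCs, 3.8-fold higher. The other 8 lay within 2-fold. Of the 11, 9.09% were thus at least 2-fold lower and 18.2% higher, near the 10.6% and 12.5% of all entries. The median log2 ratio of the 11 was -0.15.

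A pair of genes with related names falls outside the name rule. Cldnd2 had 0.0956 FPKM with LIF and 0.0345 FPKM after RA, and Gje1 had 0.720 FPKM in ESCs against 0.568 FPKM in NCs, so neither reached 1 FPKM.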
